A study of Rattus norvegicus with 6 samples.

Results

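The expression of 10 genes for chains of collagens and laminins was followed through the ileum of rats with and without severe acute pancreatitis. The genes were Col1a1, Col1a2 and Col3a1 (chains of the fibrillar collagens), Col6a3 (a chain of the collagen of beaded microfibrils), Col4a1 and Col4a2 (the network collagen of basement membranes), and the laminin chains Lama1, Lama5, Lamb1 and Lamc1. Members were taken by their symbols, and all 10 were among the 28282 symbols of the count tables. Their UMIs (unique molecular identifiers, 1 per captured transcript) were summed per rat over all nuclei and over classes of nuclei.

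Fibrillar collagens bear the tension of the submucosa and of the muscle layers and are made mainly by fibroblasts and smooth muscle cells. Each basement membrane under the epithelium, around vessels and around muscle fibres is built of a laminin network and a type IV collagen network, and a laminin is a trimer of an alpha, a beta and a gamma chain. In the gut both the epithelium and the stroma contribute chains to the basement membrane between them, and laminins with the chain of Lama5 are widespread in the basement membranes of adult epithelia. The chains of Col1a1 and Col1a2, and likewise those of Col4a1 and Col4a2, join in a fixed ratio in 1 protein.

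Promoter windows from RefSeq (build GRCr8) were found for 8 of the 10 members, and those of Col1a1 and Col3a1 were not. Col4a1 and Col4a2 are neighbours that start back to back, and the stretch between both starts is shown because it is the whole distance that separates the starts of the chains compared throughout. Upstream bases of Lamc1 are shown too, and those of Lama1, which was highest in fibroblast-like nuclei. Capitals mark GC boxes (GGGCGG on either strand), CCAAT and TATAAA.
Col4a2 to Col4a1, chr16:84885521-84885596, plus strand: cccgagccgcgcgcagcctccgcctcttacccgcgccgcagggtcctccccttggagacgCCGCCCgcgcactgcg
Lamc1, chr13:68051987-68052136, minus strand: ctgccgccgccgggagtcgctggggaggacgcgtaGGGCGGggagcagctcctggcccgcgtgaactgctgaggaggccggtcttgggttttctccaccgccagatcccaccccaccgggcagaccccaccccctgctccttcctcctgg
Lama1, chr9:115139398-115139547, plus strand: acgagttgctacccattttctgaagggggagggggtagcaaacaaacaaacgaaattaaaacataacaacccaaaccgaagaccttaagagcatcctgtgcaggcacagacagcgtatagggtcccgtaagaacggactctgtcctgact

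The stretch between Col4a2 and Col4a1 is 76 bases long with 78.95% G and C, and it holds 1 GC box. In the 250 bases before each start, G and C made up 75.2% for Col4a1, 74.4% for Col4a2, 72.8% for Lama5 and 71.2% for Lamc1, against 62.0% for Lamb1, 58.4% for Col1a2 and for Col6a3, and 44.8% for Lama1. Of all 33469 promoter windows, 26.52% had less G and C than Lama1 and 96.67% less than Col4a1. A GC box, searched on both strands, was present for Col4a1, Col4a2, Lama5, Lamb1 and Lamc1 and in 30.47% of all windows. CCAAT was present for Col1a2, Col4a1 and Col4a2 and in 34.02% of all windows. TATAAA was present for Col1a2 alone among the 8, and in 12.93% of all windows. The annotated starts of Col1a2 and Lama5 lie at an ATG, so their windows may hold transcribed bases. With 76 bases between their starts, the windows of Col4a1 and Col4a2 overlap, and each holds bases of the other gene. Their shares of G and C and their motif matches are therefore not independent. In RefSeq order Col3a1 has Col5a2 beside it.

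Single-nucleus RNA libraries, which the labels place in 1 batch, came from the ileum of 6 male wild type Sprague–Dawley rats aged 6 weeks that had 7 days to acclimatise, 1 library per rat. All had a laparotomy under 3% pentobarbital sodium (40 mg/kg) and had water but no food afterwards. In the SAP group (n = 3) the pancreatic duct received sodium taurocholate at 3%, in a volume of 0.1 mL for every 100 g of body weight and at 0.1 mL/min, and was then clamped for 5 min, and the CON group (n = 3) had the sham operation. Tissue was taken at 24 h, cleared of mesenteric fat and, where visible, of Peyer's patches. The question was which cells make these matrix chains and whether their RNA had moved by then.

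Of 90461 barcodes, 40970 passed the limits of the study, 6260 to 9246 per CON rat and 3189 to 7893 per SAP rat, with 11402966 to 28771508 UMIs per CON rat and 5549260 to 19435288 per SAP rat. Clusters were named with the suffix -like from 154 marker genes, of which 153 were found, and this gave 31282 epithelial, 3775 stromal and 5911 immune nuclei. Stromal nuclei made up 5.03%, 5.14% and 15.58% of nuclei in CON replicates 1 to 3 and 5.83%, 4.46% and 15.52% in SAP replicates 1 to 3, so that replicate 3 stood apart in both groups. The tables of CON replicate 2 and SAP replicate 1 list barcodes under 1000 UMIs and the others do not. Barcodes were named by running cell numbers, of which 195 to 746 recurred between any 2 libraries, so these names show no shared nuclei.

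The members were sparse. Over all passing nuclei Lamc1 had 11779 UMIs, Col4a1 4924, Col4a2 4376, Col3a1 3459, Lama5 2384, Col1a2 1922, Col6a3 1888, Lamb1 1776, Col1a1 1397 and Lama1 575. These totals are not comparable between genes, since gene length was not taken into account, and each gene is compared only with itself below. Levels by class are in CPM, the UMIs of a gene in a class and rat scaled to 1000000 UMIs in all, given as mean ± SD over the rats with at least 10 nuclei of the class. They are a description without a test, since the classes were made from the same nuclei.

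Col3a1 and Col6a3 were highest in fibroblast-like and smooth muscle-like (SMC-like) nuclei. Col3a1 reached 339 ± 136 CPM (SD, n = 6) in fibroblast-like nuclei and 294 ± 105 CPM in the SMC-like class. It was at 245 ± 47.6 CPM in mesothelial-like nuclei (n = 3 rats) and at 168 ± 110 CPM in endothelial-like nuclei. Col6a3 had 161 ± 77.4 CPM in fibroblast-like, 137 ± 44.6 CPM in SMC-like and 73.0 ± 51.6 CPM in endothelial-like nuclei. Neighbouring classes in the order of levels overlapped in their range over rats, here and for the other 8 members, except Lama5 in the lowest pair, enterocyte-like and neutrophil-like nuclei.

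Over all 6 rats the chains of type I collagen did not share an order of classes. Col1a2 was at 180 ± 47.3 CPM (n = 6) in SMC-like nuclei and at 164 ± 165 CPM in fibroblast-like nuclei. In the latter it ranged from 0 to 429 CPM over the rats and had 0 and 2 UMIs in SAP replicates 1 and 2. Col1a1 was at 131 ± 86.1 CPM in fibroblast-like, 105 ± 90.6 CPM in endothelial-like and 56.3 ± 27.8 CPM in SMC-like nuclei. In CPM scaled between the libraries of a class, Col1a2 in CON rats was at 310 ± 199, 187 ± 112 and 177 ± 78.1 in these classes. Col1a1 in CON rats was at 197 ± 109, 156 ± 113 and 79.0 ± 28.5, the same order. The endothelial-like cluster scored 4.128 on endothelial and 2.171 on fibroblast markers (mean log2 ratio to the other nuclei). Its Col1a1 ranged from 4.64 to 270 CPM, and the part of fibroblast RNA in its levels was not tested. Summed over the rats of both groups, SMC-like nuclei held 222 UMIs of Col1a1 and 591 of Col1a2, a log2 ratio of −1.41. Fibroblast-like nuclei held 290 and 365 (−0.33) and endothelial-like nuclei 205 and 224 (−0.13). These sums mix CON and SAP. In CON rats alone the mean log2 ratio was −1.13 in SMC-like, −0.61 in fibroblast-like and −0.23 in endothelial-like nuclei. Of the UMIs of each gene in a rat, a mean of 54.2% (Col1a1), 67.3% (Col1a2), 69.1% (Col3a1) and 61.6% (Col6a3) came from stromal nuclei.

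Type IV collagen was spread over more stromal classes. Col4a1 was at 342 ± 178 CPM (n = 6) in SMC-like, 332 ± 193 CPM in endothelial-like and 228 ± 169 CPM in fibroblast-like nuclei. Col4a2 was at 298 ± 82.0 CPM, 293 ± 115 CPM and 199 ± 111 CPM in the same classes. In adipocyte-like nuclei, of which only 4 rats gave 10 or more, Col4a1 was at 544 ± 595 CPM and Col4a2 at 583 ± 268 CPM. In neuron/glia-like nuclei Col4a2 was at 267 ± 94.0 CPM, near its level in endothelial-like nuclei, and Col4a1 at 121 ± 35.6 CPM, below its own level there. Summed over the rats of both groups, neuron/glia-like nuclei held 93 UMIs of Col4a1 against 181 of Col4a2 (log2 ratio −0.96). The ratio of such sums was 0.24 in SMC-like, 0.35 in endothelial-like and 0.27 in fibroblast-like nuclei.

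Lama1, a laminin alpha chain, was high in a single class. It was at 93.1 ± 57.1 CPM (n = 6) in fibroblast-like nuclei, at 19.7 ± 39.3 CPM in adipocyte-like nuclei (n = 4) and at 12.2 ± 10.4 CPM in SMC-like nuclei. After each nucleus was thinned to 1200 UMIs, 9.09% of fibroblast-like nuclei had a UMI of Lama1 (13.4% without thinning), against 0.587% of T-like nuclei (0.769%). Median depth was 1726 UMIs in fibroblast-like and 1760 UMIs in T-like nuclei. Lama1 was among the 10 leading genes of the fibroblast-like cluster, although the members were left out of the genes used for clustering.

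Lama5, the other alpha chain among the members, was highest in an epithelial cluster. This cluster 7 (1416 nuclei) was led by Gfra4 and Kif19, also held Habp2, and was left unnamed. Lama5 was at 90.1 ± 52.9 CPM (n = 6) there, 61.2 ± 18.3 CPM in SMC-like, 54.2 ± 23.5 CPM in endothelial-like and 43.8 ± 19.0 CPM in Paneth-like nuclei. Thinned to 1200 UMIs, 10.3% of nuclei of cluster 7 had a UMI of Lama5, against 8.32% of SMC-like and 1.25% of T-like nuclei. Epithelial nuclei, the most numerous, held a mean of 68.9% of the Lama5 UMIs of a rat and stromal nuclei 20.1%.

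The beta and gamma chains differed from both. Lamb1 was at 128 ± 66.5 CPM (n = 6) in fibroblast-like, 98.1 ± 52.1 CPM in endothelial-like, 94.3 ± 94.5 CPM in adipocyte-like (n = 4) and 54.9 ± 28.0 CPM in SMC-like nuclei, and at 67.8 ± 37.0 CPM in the unnamed cluster 21 (n = 3). Lamc1, the gamma chain that most laminins share, was at 575 ± 231 CPM in adipocyte-like nuclei (n = 4), 418 ± 231 CPM in cluster 21 (n = 3), 351 ± 129 CPM in fibroblast-like, 273 ± 92.1 CPM in endothelial-like and 261 ± 61.8 CPM in SMC-like nuclei (n = 6 each). It was also at 195 ± 67.1 CPM in B-like and 105 ± 28.4 CPM in T-like nuclei. Epithelial nuclei held 61.7% of its UMIs.

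**Figure D1:**
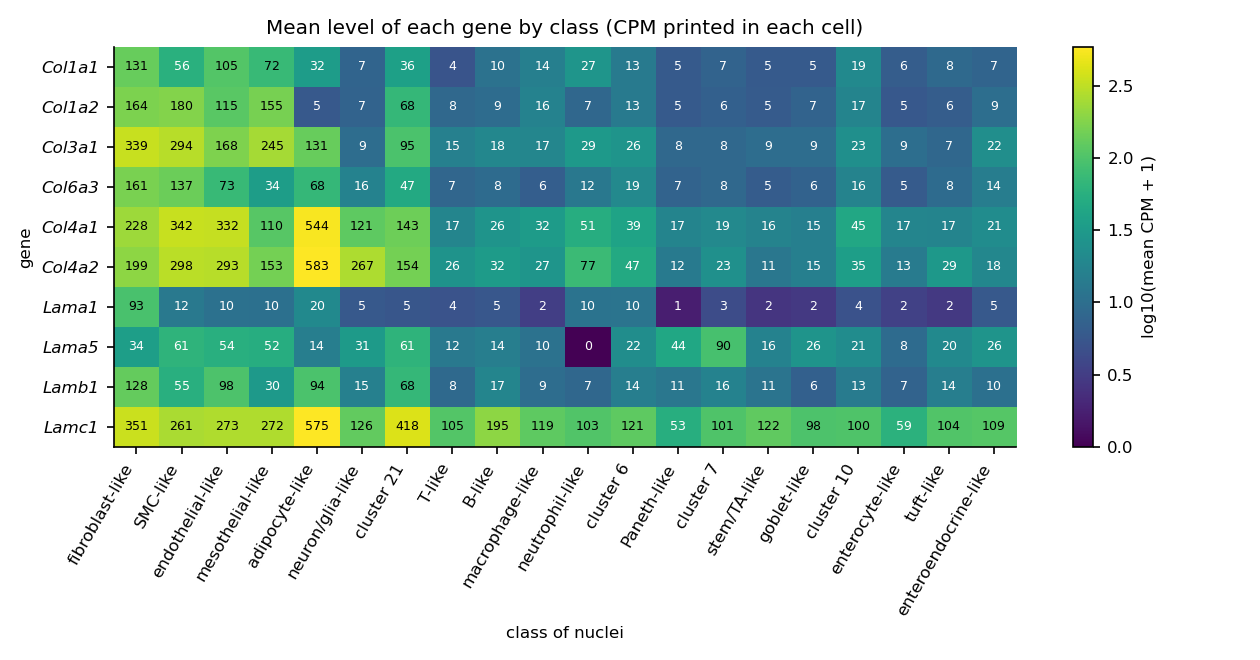
Mean level of each member (rows) in each class of nuclei with at least 3 usable rats (columns), as log10(mean CPM + 1) in colour and as mean CPM in each cell. The collagens and Lamb1 are high on the stromal side at the left, Lama1 is high in fibroblast-like nuclei (93) and Lama5 in cluster 7 (90). Lamc1 ranges from 53 in Paneth-like to 575 in adipocyte-like nuclei.

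The genes most alike to each member were taken by Pearson's r of log2(CPM + 1) over 20 classes, all from the same 6 libraries, as a description. They were Dcn (r = 0.95) and Pdgfrb (0.92) for Col1a1, Col6a2 (0.95) and Foxf1 (0.92) for Col1a2, Serpinh1 (0.97) and Meis2 (0.96) for Col3a1, and Dennd2a (0.95) and Igfbp4 (0.94) for Col6a3. Serpinh1 encodes a chaperone of collagen and Col6a2 another type VI chain. For Col4a1 they were Igfbp7 (0.95) and Sparc (0.94), and for Col4a2 Spaca6 (0.95) and Tns2 (0.94). For the laminin chains they were Frzb (0.89) and Fbln1 (0.88) for Lama1, Acy3 (0.86) and Mccc1 (0.85) for Lama5, Hrct1 (0.92) and Cyp7b1 (0.89) for Lamb1, and Prkd1 and Amotl1 (both 0.92) for Lamc1.

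Outside the stroma most members were lower in epithelial than in immune nuclei, which served as the background for collagens and laminins. Immune nuclei were no floor for Lamc1, which was at 195 ± 67.1 CPM in B-like nuclei. The 5911 immune nuclei were the T-like, B-like, macrophage-like and neutrophil-like nuclei and the unnamed cluster 6. Col4a1 in epithelial nuclei was at 2.73, 5.56 and 27.1 CPM in CON replicates 1 to 3 and at 15.8, 5.83 and 50.1 CPM in SAP replicates 1 to 3. In the immune nuclei of the same rats it was at 12.7, 7.04 and 47.2 CPM and at 18.7, 20.3 and 71.3 CPM. The immune value was the higher in all 6 rats, and the same held for the other 5 collagens, Lama1 and Lamc1, while epithelial Lamb1 was above immune Lamb1 in 2 of the 6. With cluster 6 and neutrophil-like nuclei left out of the immune nuclei, epithelial Col4a1, Col1a1 and Col1a2 were each the higher in 2 of the 6 rats. Col3a1 was so in 1, Col6a3, Lama1 and Lamb1 each in 3, and Col4a2 and Lamc1 each in 0 of the 6. Replicate 3, with the largest share of stromal nuclei, had the highest epithelial level within each group for every member other than Lamc1. Free RNA from stromal cells and expression cannot be told apart at these levels.

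Lama5 was above the immune level in most rats. In epithelial nuclei it was at 24.5, 19.7 and 30.1 CPM in CON rats and 14.97, 8.23 and 22.1 CPM in SAP rats, and in immune nuclei at 16.7, 10.6 and 19.8 CPM in CON rats and 11.7, 11.3 and 21.2 CPM in SAP rats. The epithelial value was the higher in 5 of the 6 rats and the lower in SAP replicate 2, and it was the higher in all 6 when cluster 6 and neutrophil-like nuclei were left out. Lamc1 was at 81.3 CPM in epithelial against 133 CPM in immune nuclei of CON replicate 1, and at 103 against 172 CPM in SAP replicate 3.

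**Figure D2:**
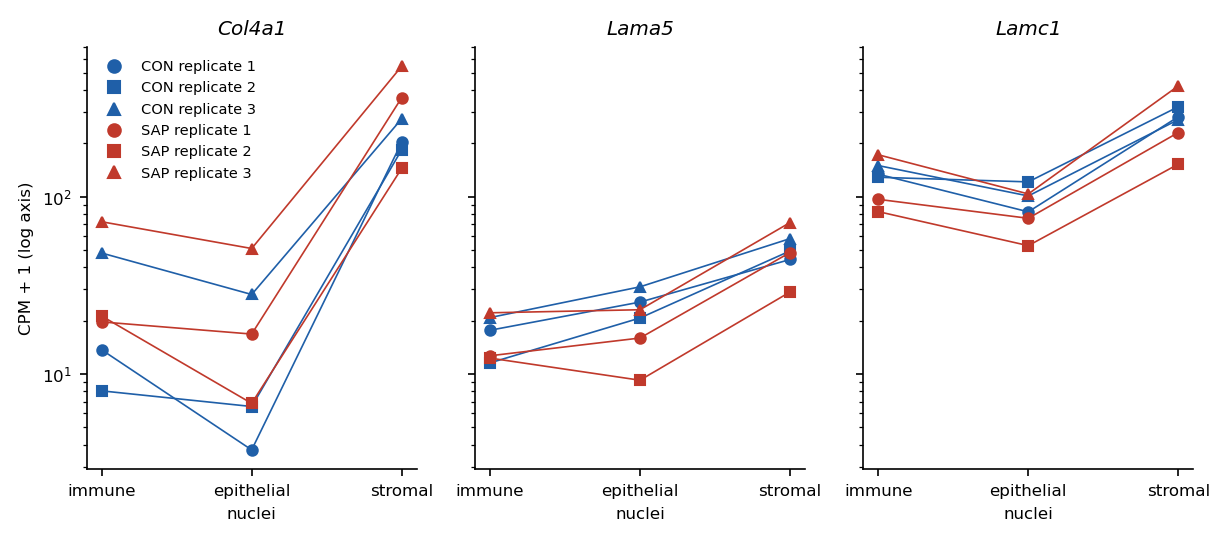
Levels of Col4a1, Lama5 and Lamc1 (CPM + 1, log axis) in immune, epithelial and stromal nuclei, with 1 line per rat, CON in blue and SAP in red, and the symbol giving the replicate number. Epithelial Col4a1 (2.73 to 50.1 CPM) lies under the immune level in each rat, while epithelial Lama5 lies above it in 5 of 6.

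In the comparison of SAP with CON no member passed at an adjusted p under 0.05 and a log2 fold change of at least 0.5 in any of 19 fits (edgeR's quasi-likelihood test, Benjamini-Hochberg over all genes of a fit), which held 109 tests of members. Without adjustment 1 of the 109 had p under 0.05 by edgeR and 3 by DESeq2, which called none either. The edgeR count was 9 of 109 with the replicate block and 15 of 109 without CON replicate 3 or without SAP replicate 3. Over all genes in all nuclei, 2380 of 19187 had an unadjusted p under 0.05 by edgeR with the block. The count was 2630 of 19082 without CON replicate 3, 2521 of 19013 without SAP replicate 3 and 1978 of 19187 by DESeq2. These counts are of 1 fit, while the 109 tests span 19 fits whose shares differ. In fibroblast-like nuclei 352 of 6323 genes had such a p with the block and 262 of 6323 by DESeq2. There it was 382 of 5971 without CON replicate 3 and 636 of 5949 without SAP replicate 3. Few genes of any kind were called, namely 0% of 19187 in all nuclei, 0% of 17034 in all epithelial nuclei, 0.00796% of 12556 in all stromal nuclei, 0.0685% of 8759 in SMC-like, 0% of 6323 in fibroblast-like and 0.0147% of 6815 in endothelial-like nuclei. In the other 13 fits between 0 and 4 genes were called, which was 0.0498% in cluster 7, 0.0247% in B-like, 0.0156% in enteroendocrine-like, 0.0152% in cluster 10, 0.0131% in tuft-like, 0.00824% in goblet-like nuclei and 0% in the others. By DESeq2 the 6 fits named first called 215, 328, 112, 159, 4 and 2 genes. The share of genes with an unadjusted p under 0.05 by edgeR was 8.43% in all nuclei, 11.4% in all epithelial, 9.26% in all stromal, 11.1% in SMC-like, 5.3% in fibroblast-like and 5.66% in endothelial-like nuclei.

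Over all nuclei the members ranged from a log2 fold change of −0.55 (Lama5) to 0.87 (Col4a1), with a median of 0.23 against 0.02 for all genes. The median over the members was 0.21 in SMC-like, −0.16 in fibroblast-like, −0.12 in endothelial-like and 0.42 in all epithelial nuclei, against −0.01, 0.01, 0.03 and −0.005 for all genes of these fits. In CPM scaled between libraries by edgeR's TMM factors (TMM-scaled CPM), Col4a1 was at 20.4, 15.5 and 53.9 in CON rats and 46.8, 16.9 and 99.8 in SAP rats (log2 fold change 0.87 ± 0.67 SE, adjusted p = 0.790, edgeR). In both groups replicate 3, with the most stromal nuclei, was highest, and the groups overlapped for each of the 10 members, while 4.9% of all genes were higher and 9.06% lower without overlap. With same-numbered libraries as blocks in these sums, the log2 fold changes were 0.74 for Col4a1, 0.50 for Col4a2 and −0.59 for Lama5. Their adjusted p were 0.389, 0.412 and 0.403 by edgeR. Over the 10 members the values ran from −0.84 (Col1a1) to 0.74, and no label gives a source for these pairs. In such sums fewer cells of a type and less RNA per cell cannot be told apart. The shares of fibroblast-like nuclei (2.17% ± 1.66 in CON and 2.19% ± 1.92 in SAP, SD, n = 3 each), of SMC-like nuclei (3.39% ± 2.76 and 3.08% ± 1.79) and of endothelial-like nuclei (1.59% ± 1.01 and 1.87% ± 0.963) did not pass (limma on logit shares, adjusted p = 0.989 for each).

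In SMC-like nuclei Col3a1 was the member nearest the threshold. It was at 231, 182 and 264 TMM-scaled CPM in CON replicates 1 to 3 and at 389, 356 and 468 in SAP replicates 1 to 3. Every SAP rat was above every CON rat. The log2 fold change was 0.84 ± 0.27 (SE, adjusted p = 0.247, edgeR), and on log2(TMM-scaled CPM + 1) it was 1.09 between the libraries that list low barcodes and 0.73 among the other 4. It was 1 of 9 members tested whose groups did not overlap, while 7.89% of all genes of this fit were higher without overlap and 10.8% lower.

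The other collagens of SMC-like nuclei overlapped between the groups. Col4a1 was at 271, 159 and 351 TMM-scaled CPM in CON rats and 646, 214 and 574 in SAP rats (0.85 ± 0.43 SE, adjusted p = 0.504, edgeR). Col4a2 was at 236, 230 and 335 in CON rats and 465, 266 and 394 in SAP rats (0.47 ± 0.30 SE, adjusted p = 0.628, edgeR). In both genes SAP replicate 2 lay within the CON range. Col1a1 was at 112, 59.3 and 66.0 in CON rats and 34.7, 24.2 and 64.9 in SAP rats (−0.80 ± 0.42 SE, adjusted p = 0.515, edgeR), so that 2 of the 3 SAP rats were under the CON range. Col1a2, Col6a3, Lama5, Lamb1 and Lamc1 had log2 fold changes from −0.11 to 0.24.

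Marker levels of the SMC-like class also differed between the groups, and a changed mix of cells cannot be told apart from changed expression per nucleus. The summed level of the 9 smooth muscle markers in it was 19636, 11216 and 9090 CPM in CON rats and 6214, 2375 and 5546 CPM in SAP rats, and that of the 6 pericyte markers was 276, 446 and 597 CPM in CON rats and 1498, 984 and 1011 CPM in SAP rats. Neither sum overlapped between the groups, and all 15 markers were detected. The part of this shift in the SMC-like values, those of the chain ratios and the other matrix genes included, was not tested.

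In fibroblast-like nuclei, with 118, 72 and 344 nuclei in CON rats and 34, 65 and 348 in SAP rats, Col1a2 had the widest spread. It had 134, 35 and 72 UMIs in CON replicates 1 to 3 and 0, 2 and 122 UMIs in SAP replicates 1 to 3, or 514, 301 and 117 against 0, 11.2 and 176 TMM-scaled CPM. The 0 of SAP replicate 1 allows up to 51.1 CPM by the library total of the class (3 UMIs of 58695, counting error only). This limit is not on the TMM scale of the values before it. SAP replicates 1 and 2 were under every CON rat and SAP replicate 3 was not. The log2 fold change was −1.79 ± 0.84 (SE, adjusted p = 0.940, edgeR), and it was −5.07 without SAP replicate 3.

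The groups overlapped for all 9 members tested in fibroblast-like nuclei, where 5.06% of all genes were higher and 6.71% lower without overlap. Col3a1 was at 464, 343 and 426 TMM-scaled CPM in CON rats and 598, 89.6 and 443 in SAP rats (−0.21 ± 0.53 SE, adjusted p = 1.00, edgeR). Lama1 was at 53.7, 180 and 92.4 in CON rats and 111, 28.0 and 169 in SAP rats (0.11 ± 0.60 SE, adjusted p = 1.00, edgeR). SAP replicate 2 was the lowest rat for 8 of the 9 members tested here, and its 9 fibroblast markers summed to 363 CPM against 1462 to 2579 CPM in the other 5 rats. Lama5 did not pass the filter on low counts in this class, nor did Lama1 in SMC-like and endothelial-like nuclei.

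**Figure D3:**
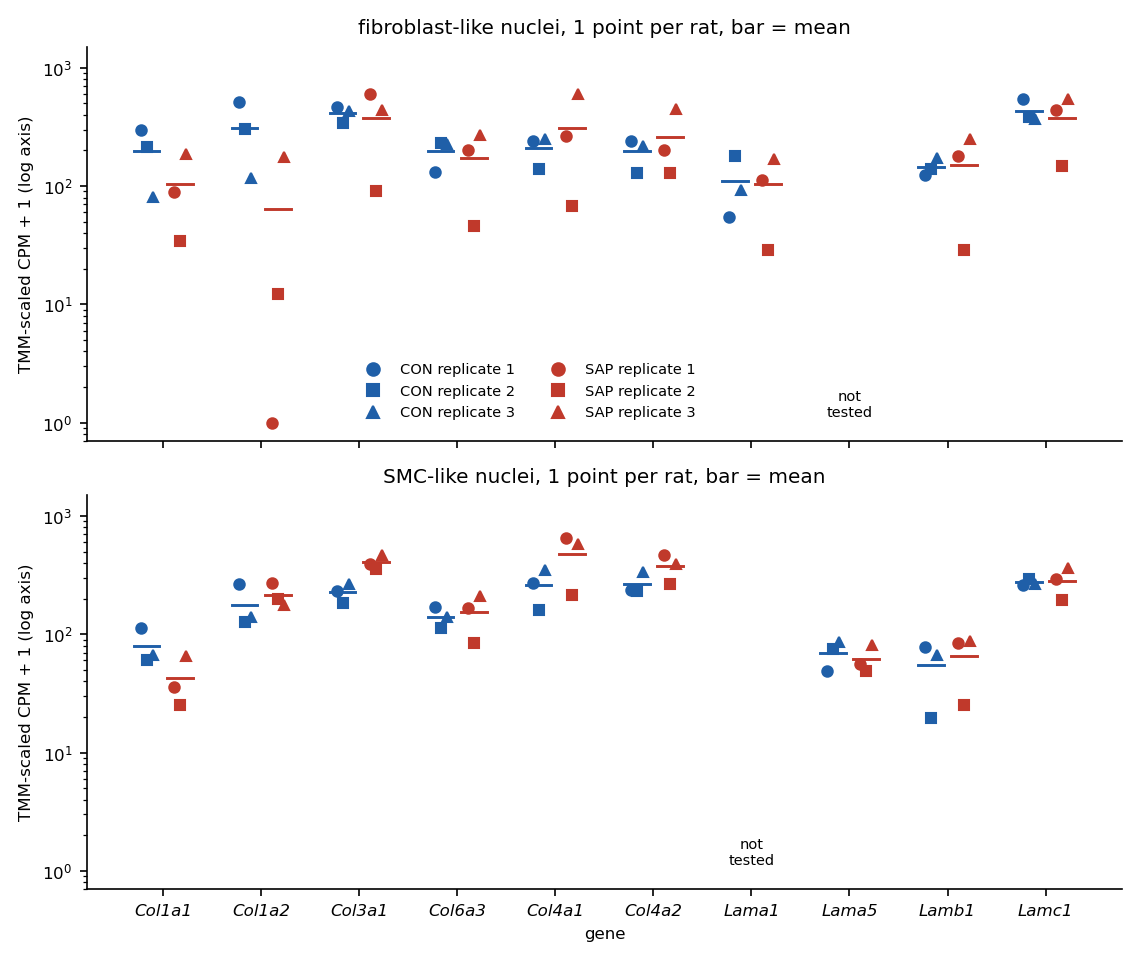
TMM-scaled CPM + 1 (log axis) of each member in fibroblast-like (top) and SMC-like nuclei (bottom), with 1 point per rat, CON in blue and SAP in red, the symbol giving the replicate number and the bar the group mean. Col3a1 in SMC-like nuclei (182 to 264 in CON, 356 to 468 in SAP) is the gene whose groups do not overlap.

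In endothelial-like nuclei the log2 fold changes were below 0 for the fibrillar collagens and above 0 for type IV collagen, all within the spread of the rats. Col1a2 was at 245, 258 and 57.9 TMM-scaled CPM in CON rats and 69.1, 26.7 and 120 in SAP rats (−1.16 ± 0.60 SE, adjusted p = 0.883, edgeR). Col4a1 was at 299, 343 and 334 in CON rats and 334, 160 and 761 in SAP rats (0.41 ± 0.46 SE, adjusted p = 0.973, edgeR). The groups overlapped for all 9 members tested, against 5.59% of all genes higher and 5.97% lower without overlap, and SAP replicate 2 was the lowest rat for each member. Its 8 endothelial markers summed to 645 CPM, against 1070 to 1600 CPM in the others.

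**Figure D4:**
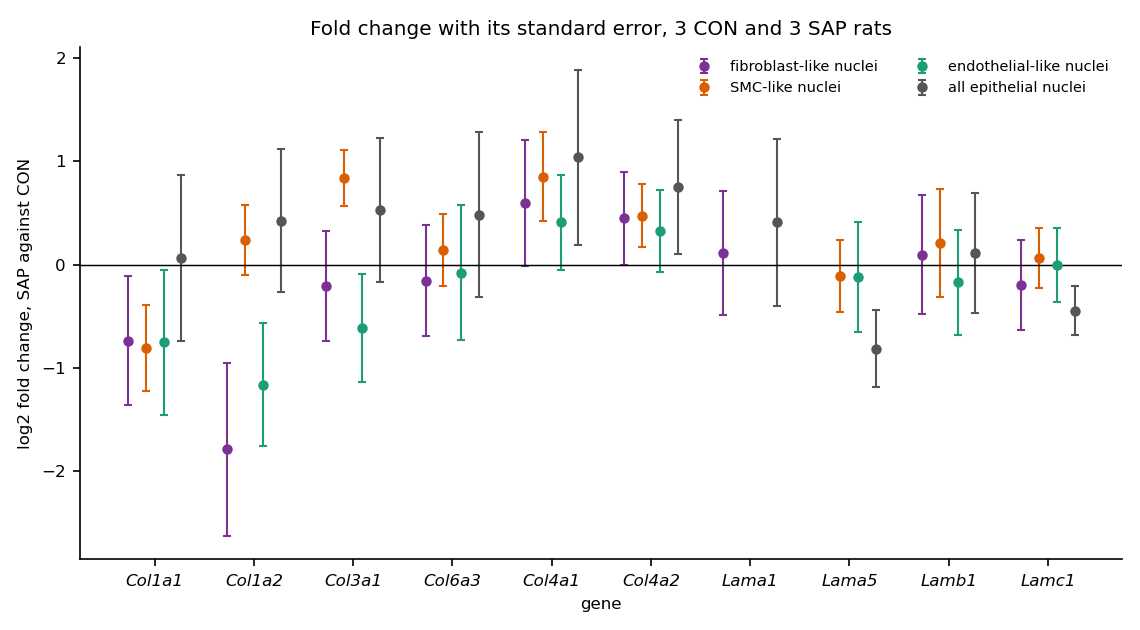
Log2 fold change of SAP against CON with its standard error for each member, in fibroblast-like, SMC-like, endothelial-like and all epithelial nuclei (edgeR, 3 rats per group). Col4a1 and Col4a2 are above 0 and Lama5 and Lamc1 near or under 0 in the fits that tested them, and no value passed the threshold.

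The ratio of the type I collagen chains did not pass after adjustment in any class. In fibroblast-like and SMC-like nuclei its groups did not overlap, in opposite directions. As log2 of UMIs (0.5 added), Col1a1 to Col1a2 in SMC-like nuclei was −1.25, −1.06 and −1.06 in CON rats and −2.84, −2.94 and −1.42 in SAP rats. In fibroblast-like nuclei it was −0.80, −0.48 and −0.55 in CON rats and 3.17, 1.38 and 0.08 in SAP rats. The groups did not overlap in either class, with a difference of −1.27 in SMC-like and 2.15 in fibroblast-like nuclei. Each had p = 0.1 in an exact two-sided permutation test, the smallest that 3 against 3 can give, and 0.4 after adjustment over 8 ratios. Of single genes, 5.06% were higher and 6.71% lower without overlap in fibroblast-like nuclei, and 7.89% and 10.8% in SMC-like nuclei. How often the ratios of other pairs of genes separate the groups was not tested. In the SMC-like class the summed smooth muscle markers were lower and the pericyte markers higher in SAP without overlap, as given above.

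These ratios rest on few UMIs. The fibroblast-like values came from 4 UMIs of Col1a1 and 0 of Col1a2 in SAP replicate 1, and 6 and 2 in SAP replicate 2, while SAP replicate 3 had 129 and 122. In SMC-like nuclei Col1a1 had 61, 16 and 72 UMIs in CON rats and 5, 7 and 61 in SAP rats, and Col1a2 146, 34 and 151 in CON rats and 39, 57 and 164 in SAP rats. In endothelial-like nuclei the ratio was −0.23 ± 0.75 in CON and −0.48 ± 1.21 in SAP (SD, exact permutation p = 0.8). Over all nuclei the groups differed by −0.59 (exact permutation p = 0.3).

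The ratio of the type IV chains did not separate the groups. Col4a1 to Col4a2 was 0.20, −0.52 and 0.07 (log2) in SMC-like nuclei of CON and 0.47, −0.31 and 0.54 in SAP. In fibroblast-like nuclei it was 0.00, 0.09 and 0.20 in CON rats and 0.40, −0.91 and 0.41 in SAP rats. The groups overlapped in these classes, in endothelial-like nuclei and over all nuclei, with differences from −0.13 to 0.32 and exact permutation p from 0.5 to 1.0.

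**Figure D5:**
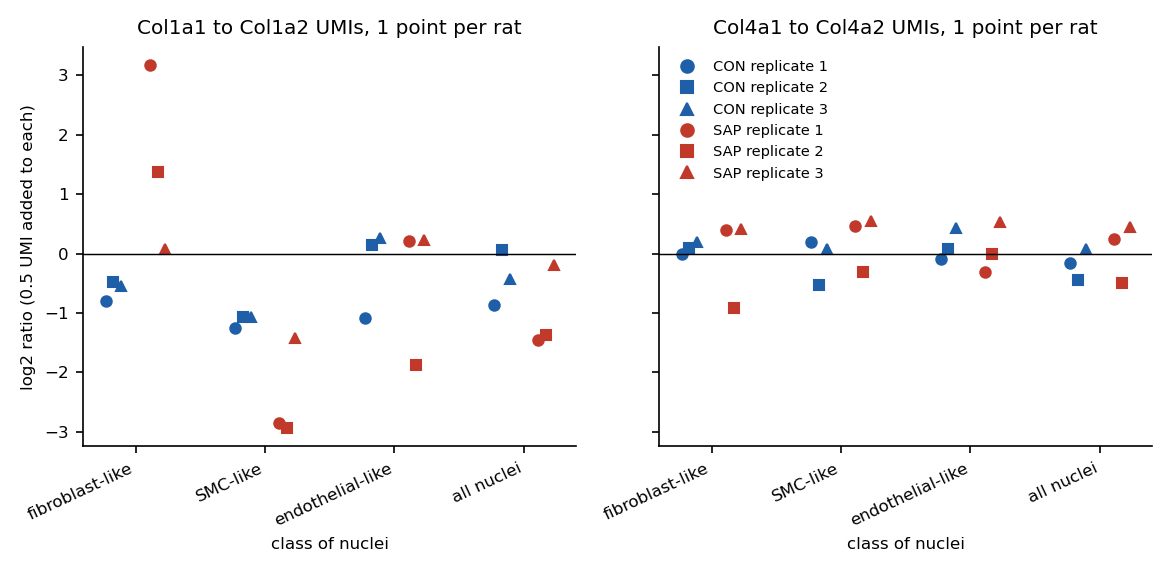
Log2 ratio of UMIs of Col1a1 to Col1a2 (left) and of Col4a1 to Col4a2 (right) in 3 classes and in all nuclei, with 1 point per rat, CON in blue and SAP in red, and the symbol giving the replicate number. The type I ratio lies above CON in fibroblast-like and below it in SMC-like nuclei of SAP, and the point at 3.17 rests on 4 UMIs against 0.

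In epithelial nuclei Lama5 was the member whose groups did not overlap on TMM-scaled CPM, while in CPM by library total, given above, SAP replicate 3 (22.1) was above CON replicate 2 (19.7). On the first scale it was at 33.2, 17.98 and 25.2 TMM-scaled CPM in CON rats and 17.05, 8.75 and 17.8 in SAP rats. The log2 fold change was −0.81 ± 0.37 (SE, adjusted p = 0.457, edgeR). The gap between the groups was small, 17.98 for the lowest CON rat against 17.8 for the highest SAP rat. Lower values without overlap were found for 12.4% of all genes of this fit, and higher ones for 6.63%. The value was −0.07 between the libraries that list low barcodes and −1.08 among the other 4.

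Lama5 in cluster 7, where its level was highest, was at 95.6, 108 and 161 TMM-scaled CPM in CON rats and 30.0, 47.7 and 107 in SAP rats (−0.86 ± 0.39 SE, adjusted p = 0.519, edgeR), and the groups overlapped. The cluster itself made up 3.95%, 5.02% and 4.59% of nuclei in CON and 3.10%, 1.64% and 1.95% in SAP (limma on logit shares, adjusted p = 0.723). In goblet-like nuclei Lama5 had −0.63 ± 0.34 (SE, adjusted p = 0.681, edgeR). In enterocyte-like and stem/TA-like nuclei the value of Lama5 was −0.10 ± 0.45 and −0.06 ± 0.41 (SE, adjusted p = 0.963 and 0.967, edgeR). Enterocyte-like nuclei, where Lama5 was at 8.26 CPM, made up 19.5% ± 2.11 of nuclei in CON and 34.7% ± 15.8 in SAP (SD). Stem/TA-like nuclei, with Lama5 at 15.7 CPM, made up 35.3% ± 7.98 and 21.8% ± 4.67. Neither share passed (limma on logit shares, adjusted p = 0.723 for each). The part that the shares of these classes and of cluster 7 had in the epithelial sum was not tested.

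Lamc1 was at 110, 110 and 84.1 TMM-scaled CPM in all epithelial nuclei of CON and 85.0, 55.3 and 83.1 in SAP (−0.45 ± 0.24 SE, adjusted p = 0.505, edgeR). The part in this sum of the shares of enterocyte-like and stem/TA-like nuclei, given above, was not tested. Lamc1 itself was at 59.1 CPM in enterocyte-like and 122 CPM in stem/TA-like nuclei (means over rats). In stem/TA-like nuclei it was at 152, 148 and 123 in CON rats and 113, 76.8 and 121 in SAP rats, without overlap (−0.44 ± 0.23 SE, adjusted p = 0.581, edgeR), as were 10.2% of all genes there on the lower side. By library total alone SAP replicate 3 (136 CPM) was above CON replicate 3 (133 CPM). In Paneth-like nuclei it was at 46.2, 28.5 and 65.9 in CON rats and 66.3, 74.2 and 76.9 in SAP rats (0.59 ± 0.40 SE, adjusted p = 0.999, edgeR), where 3.34% of all genes were higher without overlap. These values came from 97, 4 and 17 UMIs in CON rats and 9, 11 and 23 in SAP rats, and by library total alone SAP replicate 1 (47.9 CPM) was under CON replicate 3 (53.5 CPM). The collagens of epithelial nuclei had log2 fold changes above 0 (Col1a1, at 0.06, turned below 0 under 3 alternatives), up to 1.04 ± 0.84 for Col4a1 (3.71, 5.07 and 22.8 in CON rats and 18.01, 6.20 and 40.5 in SAP rats, adjusted p = 0.665, edgeR). In CPM by library total they were under the level of all immune nuclei in every rat. With cluster 6 and neutrophil-like nuclei left out, this held in every rat only for Col4a2 among the collagens. Beside them the 9 fibroblast markers summed to 14.0, 16.6 and 81.8 CPM in epithelial nuclei of CON and to 20.2, 18.1 and 101 CPM in those of SAP, with replicate 3 highest in each group, and their part in these values was not tested. In the 18129 epithelial nuclei with no UMI of 37 stromal markers the value for Col4a1 was 1.19 and that for Lama5 −0.85. These were the fibroblast, smooth muscle, pericyte, endothelial and mesothelial markers. Markers of adipocytes, lymphatic endothelium, interstitial cells of Cajal, neurons and glia were not used for this filter.

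Over all stromal nuclei the log2 fold changes ran from −0.75 (Col1a1) to 0.70 (Col4a1), with a median of 0.06, and the groups overlapped for each of the 10 members, against 6.6% of all genes higher and 9.2% lower without overlap. The effect of SAP was compared between stromal and epithelial nuclei of the same rat. For Lama5 the stromal level exceeded the epithelial one by 0.80, 1.26 and 0.90 in CON and by 1.60, 1.65 and 1.63 in SAP, on log2(CPM + 1). The difference of 0.64 had an exact two-sided permutation p of 0.1, the smallest possible here, and 0.556 after adjustment over the 10 members. For the 6 collagens the corresponding differences ran from −0.87 (Col1a2) to −0.37 (Col3a1), with exact permutation p from 0.3 to 0.6.

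Other matrix genes, 106 in 11 lists, were examined beside the members, and none was called by edgeR in the 6 fits above. The lists were chosen with earlier results of these data known, so their counts beside those of all genes are a description. In SMC-like nuclei, where 54 of them were tested, 7 had unadjusted p under 0.05 by edgeR in each direction, and 5 were higher and 11 lower without overlap, against 11.1% of all genes of this fit with p under 0.05, 7.89% higher and 10.8% lower. Smooth muscle and pericyte markers of this class had moved as well, as given above. Thbs1 (a matricellular glycoprotein) was at 87.8, 63.1 and 162 TMM-scaled CPM in CON rats and 632, 342 and 548 in SAP rats (2.23 ± 0.39 SE, adjusted p = 0.0634, edgeR), and Timp1 (an inhibitor of metalloproteinases) had 2.94 ± 0.64 (adjusted p = 0.113, edgeR). Eln, elastin, was at 203, 230 and 193 in CON rats and 90.3, 38.0 and 67.1 in SAP rats (−1.72 ± 0.33 SE, adjusted p = 0.0711, edgeR), and Col15a1, a basement membrane collagen, had −2.72 ± 0.53 (adjusted p = 0.0717, edgeR). DESeq2 called Thbs1, Eln, Col15a1 and Tnc in this class. The median over the 54 listed genes was 0.02, against −0.01 for all genes of the fit.

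The lists that hold partners of the members gave these values. Of the 11 basement membrane linkers 6 were tested in SMC-like nuclei, with a median of −0.82 and 3 lower without overlap. Of the 7 other laminins 5 were tested there, with a median of 0.13 and none without overlap. Among all genes of this fit 7.89% were higher and 10.8% lower without overlap. In fibroblast-like nuclei Lama2, the alpha chain of muscle and mesenchyme, was at 326, 378 and 253 TMM-scaled CPM in CON rats and 88.5, 61.6 and 142 in SAP rats, without overlap (−1.60 ± 0.37 SE, adjusted p = 0.763, edgeR). Its level in SAP replicate 1 was that of Col1a1 there, which rested on 4 UMIs. SAP replicate 2 had the low fibroblast markers given above, and their part was not tested. Smoc2 had −0.91 ± 0.35 (adjusted p = 0.900, edgeR). Of the 54 listed genes tested in this class 4 were higher and 5 lower without overlap, against 5.06% and 6.71% of all genes. Thbs1 (1.24 ± 0.41) and the integrin Itgb4 (0.96 ± 0.43) were the other 2 genes that the naming rule took from this class, with adjusted p of 0.825 and 0.924 by edgeR. In endothelial-like nuclei the rule took P4hb (0.43 ± 0.28) and Lama2 (−0.68 ± 0.45), each with an adjusted p of 0.956 by edgeR. Over all stromal nuclei it took Thbs1 (1.91 ± 0.38), Timp1 (2.35 ± 0.57), Itga7 (−1.43 ± 0.40) and Lama2 (−1.06 ± 0.30), with adjusted p from 0.241 to 0.321 by edgeR, and DESeq2 called Thbs1 and Timp1.

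In epithelial nuclei, where 93 of the listed genes were tested, 6 had an unadjusted p under 0.05 above 0 and 2 below 0 (edgeR), 6 were higher and 4 lower without overlap, against 11.4% of all genes with p under 0.05, 6.63% higher and 12.4% lower, and the median was 0.19 against −0.005 for all genes. Lamb2, a beta chain, had a log2 fold change of −1.28 ± 0.35 (SE, adjusted p = 0.388, edgeR), Hspg2, the proteoglycan perlecan, −0.67 ± 0.23 (adjusted p = 0.394, edgeR), and the procollagen protease Bmp1 1.37 ± 0.37 (adjusted p = 0.388, edgeR). The listed genes that DESeq2 called there included Bmp1 and Lamb3.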

How the data were processed

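The deposited tables hold raw counts, the UMIs of each gene in each barcode, which the authors obtained with dnbc4tools. They are not normalized. The submitters' processing notes name mRatBN7.2 and Seurat 4.3.0, and the count tables carry no coordinates. All nuclei with at least 1200 UMIs, at least 500 genes and at most 5% mitochondrial UMIs were kept. These limits are those of the study, which reported fewer nuclei than were kept here, and the cause of the difference was not tested. Median mitochondrial UMIs were 0.125% to 0.700% in CON and 0.387% to 1.84% in SAP libraries.

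Under Python 3.11.15, counts were log-normalized with scanpy 1.11.5, Harmony was re-implemented in numpy 2.4.6 and run on 30 principal components of 2000 variable genes, and leidenalg 0.10.2 clustered at a resolution of 0.8 with 20 neighbours. The members, the listed matrix genes and mitochondrial genes (129 in all) were left out of the variable genes. A cluster was named where its marker score was at least 0.5, led the next class by 0.8 and rested on at least 3 detected markers. Of 26 clusters 6 stayed unnamed (4092 nuclei), of which cluster 7 and cluster 21 (led by Cr2 and Cxcl13) were left unnamed after their leading genes were seen. Scrublet's own threshold marked no nuclei, so doublets were kept, and the 5% of highest score per library (2048 nuclei) were left out as an alternative.

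Counts were summed per rat and class, where every rat had at least 10 nuclei, and compared with edgeR 4.0.16 under R 4.3.3 (filterByExpr, TMM, robust quasi-likelihood), with Benjamini-Hochberg over all genes of a fit. DESeq2 1.42.0 was an alternative, and limma 3.58.1 compared shares of nuclei with an offset of 0.5. Exact permutation tests used scipy 1.17.1. The scripts were tested on simulated counts. Each rat is 1 library, and all are in 1 batch per the labels.

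The members and lists were chosen with earlier results of these data known. Of the lists, named were genes called in a fit and, in the fits of fibroblast-like, SMC-like, endothelial-like, all stromal and all epithelial nuclei, the 2 genes per direction with the smallest p among those without overlap. Other genes of the lists are named because DESeq2 called them. Same-numbered CON and SAP libraries had correlated deviations over all nuclei (r = 0.635, 0.232 and 0.474) and all stromal nuclei (0.264, 0.132 and 0.125), so the numbers were taken to pair these sums, although no label gives a source for the pairing. In all epithelial nuclei 1 pair was at 0.0853. Alternatives were other scalings, DESeq2, no filter, the replicate block, a covariate for the kind of library, each library left out, other sets of nuclei and another resolution. The values of 1 listed gene are not reported here.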

Additional observations from a re-analysis of the deposited data

Results flagged for a closer look

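Lamc1 had a log2 fold change of 0.59 in Paneth-like nuclei, where every SAP rat was above every CON rat on TMM-scaled CPM, and of −0.44 in stem/TA-like nuclei, where every SAP rat was below. In Paneth-like nuclei it was 1 of 1 member tested, 3.34% of all genes there were higher without overlap, and CON replicate 2 rested on 4 UMIs. By library total alone the groups overlapped in both classes. The difference between the classes was not tested, since they were picked for their opposite directions.

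The log2 ratio of Col1a1 to Col1a2 differed between SAP and CON by 2.15 in fibroblast-like nuclei and by −1.27 in SMC-like nuclei, with every rat of a group on its own side in each class. The difference between the classes was not tested, for the same reason. In SMC-like nuclei the summed smooth muscle markers were lower and the pericyte markers higher in SAP without overlap, and their part in the ratio was not tested. The fibroblast-like ratios of SAP replicates 1 and 2 rested on 4 and 6 UMIs of Col1a1 and 0 and 2 of Col1a2. The summed fibroblast markers of SAP replicate 2 were the lowest of all rats, and their part was not tested either. In each class the exact permutation p was 0.1, the smallest possible, and 0.4 after adjustment over 8 ratios. How often the ratios of other pairs of genes separate the groups was not tested. With the marked doublets left out the differences were 2.06 and −1.28, and with SAP replicate 1 left out the first was 1.34. The alternatives for these ratios were chosen after the data were seen.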

How the results depend on the processing

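No member was called under any alternative in the 19 fits. The number of member tests with an unadjusted p under 0.05 by edgeR, 1 of 109, was 9 of 109 with the replicate block, 13 of 190 with no filter, 2 of 126 without CON replicate 1, 15 of 109 without CON replicate 3, 11 of 128 without SAP replicate 2 and 15 of 109 without SAP replicate 3. Over all genes in all nuclei the count, 1618 of 19187, was 2380 of 19187 with the block and 1892 of 28135 with no filter. It was 1242 of 20453 without CON replicate 1 and 2630 of 19082 without CON replicate 3. Without SAP replicate 2 it was 1009 of 21126, and without SAP replicate 3 it was 2521 of 19013. These counts are of the fit of all nuclei alone, while the member tests span the 19 fits. Of 350 member values under alternatives that kept all libraries, 10 turned direction. Col1a1 in all epithelial nuclei (0.06) turned to −0.47 with the replicate block, −0.082 with the kind of library as covariate and −0.10 in nuclei with no UMI of the 37 stromal markers. With the replicate block Lama1 (0.11) and Lamb1 (0.09) in fibroblast-like nuclei turned to −0.057 and −0.13, and Lama5 in endothelial-like nuclei (−0.12) to 0.023. At a mitochondrial limit of 2% Lamb1 in fibroblast-like nuclei turned to −0.0069. Lamc1 in endothelial-like nuclei (−0.01) turned to 0.0158 without marked doublets, 0.0411 at the 2% limit and 0.0007 at a resolution of 0.4. The cause of these turns was not tested.

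The number of genes called over the 6 fits named first was 8 with edgeR. It was 37 when scaled by library total alone, 3 with RLE size factors, 820 with DESeq2, 884 with no filter on low counts, 76 with the replicate block, 1 with the kind of library as covariate and 3 at the 2% limit. It ranged from 0 without SAP replicate 1 to 118 without CON replicate 3. In SMC-like nuclei, where same-numbered libraries had r of 0.201, 0.0856 and 0.095 and the numbers are not taken to pair the samples, the block moved the count from 6 to 74. In the paired sums of all nuclei (0 and 0) and all stromal nuclei (1 and 1) it did not. Of the listed genes, Eln, Thbs1 and Tnc were called in SMC-like nuclei with the block, Thbs1 by library total alone and without SAP replicate 2, and Thbs1 and Timp1 without CON replicate 3. With no filter 9 listed genes were called in SMC-like, 7 in all stromal and 1 (Lama2) in fibroblast-like nuclei.

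With 1 library left out at a time, 23 member values changed direction. In all epithelial nuclei the log2 fold change ranged from −1.62 to 0.55 for Col1a1, −0.30 to 1.17 for Col1a2, −0.38 to 1.39 for Col3a1, −0.48 to 1.49 for Col6a3, −0.65 to 1.29 for Lama1 and −0.38 to 0.54 for Lamb1. In fibroblast-like nuclei it ranged from −0.59 to 0.26 for Col3a1, −1.07 to 0.32 for Col6a3, −0.67 to 1.08 for Col4a1, −0.40 to 0.80 for Col4a2, −1.01 to 0.60 for Lama1, −1.05 to 0.61 for Lamb1 and −0.72 to 0.19 for Lamc1. In SMC-like nuclei it ranged from −0.24 to 0.47 for Col6a3, −0.43 to 0.10 for Lama5, −0.25 to 0.61 for Lamb1 and −0.19 to 0.31 for Lamc1. In endothelial-like nuclei it ranged from −2.23 to 0.46 for Col6a3, −0.465 to 0.81 for Col4a1, −0.12 to 0.69 for Col4a2, −0.72 to 0.30 for Lama5, −1.34 to 0.26 for Lamb1 and −0.54 to 0.29 for Lamc1. The chain ratios turned for Col1a1 to Col1a2 in endothelial-like nuclei (−0.68 to 0.45) and for Col4a1 to Col4a2 in fibroblast-like (−0.35 to 0.31) and endothelial-like nuclei (−0.29 to 0.13). The logit share differences ranged from −0.53 to 0.36 for fibroblast-like, −0.365 to 0.44 for SMC-like and −0.060 to 0.56 for endothelial-like nuclei. Most low values came without SAP replicate 3. Col3a1 in SMC-like nuclei (0.60 to 0.97) and Lama5 in all epithelial nuclei (−1.03 to −0.53) kept their direction throughout.

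The members had 575 to 11779 UMIs each, and rats had 34 to 348 fibroblast-like nuclei. In simulated counts 200 genes taken at random were changed by a log2 of 2. Of these, 70.5% were called in fibroblast-like, 53.5% in all epithelial and 46% in all nuclei, with 10, 9 and 8 false calls. What could be detected at the counts of the members themselves was not tested. Neuron/glia-like nuclei at the 2% limit, with under 10 nuclei in a library, and unnamed clusters and B-like and T-like nuclei at a resolution of 0.4 were not run.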
